A study of Homo sapiens with 19 samples.

Results

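The genes described are 10 targets and brakes of the ERK branch of MAPK signalling: DUSP4, DUSP5, DUSP6, SPRY2, SPRY4, SPRED1, SPRED2, ETV4, ETV5 and PHLDA1. Their rows were found by matching Ensembl gene IDs to symbols, and all 10 stood in each of the 3 gene tables, which hold 84354 different gene IDs in all. The genes were chosen by name with their changes in these same libraries already known. Their responses are therefore a description with errors, set beside the share of all genes that passed the same test, and no p-value is given for them. HCT116 and WiDr are human colorectal carcinoma cell lines. HCT116 was kept for 96 h in the solvent DMSO, in 10 µM GSK025 or in 5 µM GSK715, with 3 short-read libraries per group. GSK025 (GSK3235025) inhibits the arginine methyltransferase PRMT5. GSK715 (GSK3368715) inhibits the type I arginine methyltransferases (PRMTs), PRMT1 among them. WiDr was kept for 96 h in DMSO or in 5 µM GSK715, with 3 short-read libraries per group and 2 libraries per group of full-length cDNA read on an Oxford Nanopore (ONT) instrument. The labels name no engineered allele, each inhibitor was given at a single dose and time, and GSK025 was not given to WiDr.

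In the ERK pathway, growth factor receptors switch on RAS, which starts the kinase relay from RAF to MEK to ERK. Active ERK induces its own brakes. The dual-specificity phosphatases DUSP4 and DUSP5 take phosphate off ERK in the nucleus and DUSP6 does so in the cytoplasm, while the Sprouty proteins SPRY2 and SPRY4 and the related SPRED1 and SPRED2 act further up, between the receptor, RAS and RAF. ETV4 and ETV5 are ETS transcription factors of the PEA3 subfamily, and PHLDA1 is a pleckstrin homology-like protein induced by ERK. Since transcripts of this kind follow ERK output closely, they are widely used as its read-out in tumour cells.

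RefSeq (GRCh38.p14) gave promoter windows for 6 of the 10 genes, 9 windows in all, from 250 bases before to 50 bases after an annotated start: DUSP6, SPRY2, SPRY4, SPRED1, SPRED2 and PHLDA1. Of these, 5 windows did not lie on bases that GENCODE 29 annotates as untranslated region. The 250 bases before the start are printed for a pair of the same family, SPRY4 and SPRY2, because they are the Sprouty genes with the larger and the smaller response to GSK715 in WiDr. SPRY4 lies on the minus strand at chr5:142324248-142324497, partly on an exon of a non-coding SPRY4 transcript, and SPRY2 on the minus strand at chr13:80341127-80341376, before a RefSeq start that lies upstream of the gene in GENCODE 29. Capitals mark the ETS letters CCGGAA, on either strand.
SPRY4: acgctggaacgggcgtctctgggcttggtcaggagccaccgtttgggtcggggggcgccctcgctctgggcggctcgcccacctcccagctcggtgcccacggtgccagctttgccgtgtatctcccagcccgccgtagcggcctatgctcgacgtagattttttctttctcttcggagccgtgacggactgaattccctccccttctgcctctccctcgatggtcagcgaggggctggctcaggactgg
SPRY2: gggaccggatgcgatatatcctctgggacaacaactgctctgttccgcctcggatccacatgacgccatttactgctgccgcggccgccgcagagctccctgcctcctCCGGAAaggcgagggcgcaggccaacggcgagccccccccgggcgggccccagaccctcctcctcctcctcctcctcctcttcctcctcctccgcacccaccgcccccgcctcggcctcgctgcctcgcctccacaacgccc
Among the 9 windows, the ETS letters occurred in this SPRY2 window, 142 bases before its start, and in the PHLDA1 window, 89 bases before its start. The other 7 windows, which include 2 more of SPRY2, held no match. Of 35116 RefSeq windows, 14.5% held them in the same 250 bases. The letters TGANTCA (AP-1) stood in the 250 bases before the start in 0 of the 9 windows and in 6.57% of all windows, TGACGTCA (CRE) in 0 and 1.65%, and CACGTG (E-box) in 0 and 6.34%. Each motif was searched on both strands, and the end of an AP-1 or CRE match can overlap an E-box. A match is a description of the letters and not a binding site. The members with the ETS letters were the ones with the smallest (SPRY2) and the largest (PHLDA1) response to GSK715 in WiDr.

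Short-read libraries held 64.6 to 66.9 M counts (M is 1e6) in HCT116 and 59.6 to 82.4 M in WiDr, and ONT libraries 1.45 to 1.67 M estimated counts. Levels are given in CPM (counts per 1e6 counts of the library) after TMM scaling, which corrects library totals for composition. Changes are log2 fold changes with a standard error (SE), and a gene is said to rise, fall or differ where edgeR's quasi-likelihood test gave an adjusted p under 0.05. Epithelial markers were present in every group, with 7 to 9 of 10 at a mean of 1 CPM or more. CDX1, which marks intestinal epithelium, was at the floor in every HCT116 group. It had at most 4 counts per library with DMSO, 10 with GSK025 and 0 with GSK715. In WiDr short reads CDX1 was also under 1 CPM, with means of 0.135 CPM with DMSO and 0.590 CPM with GSK715. Its relative CDX2 had group means of 11.6 to 16.2 CPM in HCT116. In WiDr short reads CDX2 had means of 0.547 CPM with DMSO and 1.67 CPM with GSK715. Of 12 stromal, endothelial and immune markers, 1 to 4 reached 1 CPM. In WiDr their sum, 1211 to 1241 CPM with DMSO and 3024 to 3162 CPM with GSK715 in short reads, was mostly LYZ, which encodes lysozyme. Its part in any result below was not tested. Nothing says that replicates were separate cultures, and errors and p-values may hold technical spread alone.

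Under DMSO the 10 genes differed widely in level. Per kilobase of exon (RPKM), DUSP5 stood highest in HCT116 at 143 ± 1.22 (SD, n = 3). DUSP6 (46.7 ± 1.04) and PHLDA1 (46.5 ± 0.646) followed, with levels that did not differ beyond their spread, and then DUSP4 (30.3 ± 1.21), ETV5 (21.5 ± 0.778), SPRY4 (15.3 ± 0.275), SPRED2 (13.8 ± 0.123), ETV4 (11.7 ± 0.222) and SPRED1 (7.33 ± 0.195). SPRY2 was lowest, at 3.17 ± 0.243 RPKM. In WiDr short reads the order was led by PHLDA1 at 62.1 ± 0.547 RPKM. DUSP6 and SPRED1 came next with the same level within their spread (36.6 ± 0.489 and 36.6 ± 1.22 RPKM), followed by ETV4 and DUSP5, also alike (29.8 ± 0.731 and 29.8 ± 1.43 RPKM). SPRED2 (27.4 ± 1.05), DUSP4 (15.01 ± 0.522), ETV5 (13.7 ± 0.215), SPRY4 (8.17 ± 0.302) and SPRY2 (6.93 ± 0.567) completed it. SPRY2 was thus the weakest of the 10 in both lines. The tables of the lines were scaled separately, so levels are ordered only within a line.

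GSK025, the PRMT5 inhibitor, raised most of these transcripts in HCT116, and DUSP4 and ETV4 most. 7 of the 10 rose and 2 fell, against 44.1% of the 19751 genes tested that passed in either direction (22.0% higher, 22.1% lower). Their median log2 fold change was 0.37, against -0.018 for all genes tested. PHLDA1 and SPRED1 were the members that fell, and DUSP5 did not pass. In 9 of the 10 the libraries of the groups did not overlap, as in 54.8% of all genes tested.

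Among the phosphatases, DUSP4 (GRCh38, chr8:29333064-29350668) measured 217, 214 and 230.1 CPM in the DMSO libraries and 417, 388 and 389 CPM with GSK025. All 3 treated libraries were far above the controls, a 1.81-fold rise (log2 fold change 0.85, SE 0.042). DUSP6 (chr12:89347232-89353271) went from 219.8, 211 and 218 CPM to 291, 280.4 and 280.0 CPM, a 1.31-fold rise without overlap (log2 fold change 0.39, SE 0.036). DUSP5 (chr10:110497838-110511544) stood at 376, 369.9 and 375 CPM with DMSO and at 382, 398 and 374 CPM with GSK025. These groups overlapped, and the log2 fold change of 0.04 had a 95% interval from -0.04 to 0.12. DUSP4 and DUSP6 thus passed and DUSP5 did not.

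Of the Sprouty and SPRED genes, SPRY4 (chr5:142310427-142326455) rose from 102, 98.8 and 100.05 CPM to 145, 141 and 130.4 CPM with GSK025 (log2 fold change 0.47, SE 0.051). Every treated library was above every control. SPRY2 (chr13:80335976-80340951) had 9.53, 10.4 and 8.95 CPM with DMSO and 12.1, 11.9 and 12.9 CPM with GSK025 (log2 fold change 0.35, SE 0.12). SPRED2 (chr2:65310851-65432637) went from 71.5, 71.8 and 70.6 CPM to 78.6, 75.6 and 80.7 CPM (log2 fold change 0.14, SE 0.043). Both groups were apart, but the calls of SPRY2 and SPRED2 were lost when libraries were scaled by their totals (log2 fold changes 0.29 and 0.07) and without any of several libraries: DMSO replicate 3 and GSK025 replicates 1 and 3 for either gene, and DMSO replicate 1 for SPRY2. SPRED1 (chr15:38252326-38357249), which recruits the RAS-inactivating protein neurofibromin to the membrane, fell from 59.1, 62.3 and 60.3 CPM to 48.6, 43.9 and 47.9 CPM (log2 fold change -0.37, SE 0.064). It moved against its relatives, with no overlap between the groups.

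The ETS factors both rose with GSK025. ETV4 (chr17:43527844-43579620) went from 41.8, 43.2 and 41.8 CPM to 75.4, 78.9 and 76.4 CPM, which is 1.82-fold (log2 fold change 0.86, SE 0.046). ETV5 (chr3:186046308-186110318) went from 123, 129.7 and 121 CPM to 165, 167 and 159 CPM (log2 fold change 0.39, SE 0.047). Treated libraries lay above all controls for either gene. PHLDA1 (chr12:76025447-76033932) fell from 381, 371 and 373 CPM to 224, 222 and 225 CPM, a 1.68-fold decrease with little spread in either group (log2 fold change -0.75, SE 0.033).

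**Figure D1:**
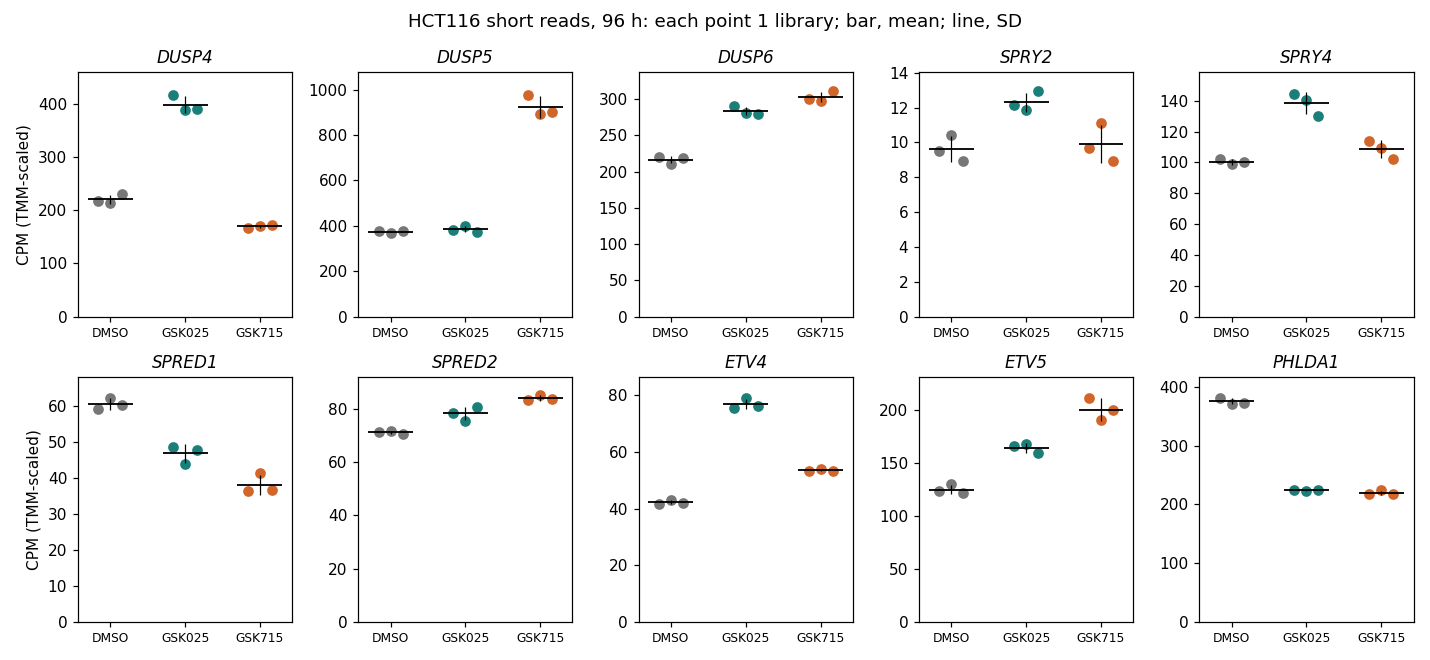
TMM-scaled CPM (linear axes from 0) of the 10 genes in the 9 HCT116 short-read libraries by treatment. Each point is 1 library, the bar is the mean and the line the SD. DUSP5 stood apart with GSK715 (893 to 977 CPM), DUSP4 with GSK025 (388 to 417 CPM), and PHLDA1 was at 217 to 225 CPM with either inhibitor against 371 to 381 CPM with DMSO.

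With GSK715, the type I PRMT inhibitor, the same DMSO libraries served as the controls. The responses to the inhibitors are therefore given side by side and not correlated. In HCT116 GSK715 raised DUSP5 most of the 10 genes and lowered PHLDA1 most. 5 members rose (DUSP5, DUSP6, SPRED2, ETV4 and ETV5), 3 fell (DUSP4, SPRED1 and PHLDA1) and 2 did not pass (SPRY2 and SPRY4). Of all 19751 genes tested, 46.4% passed (22.1% higher, 24.2% lower). With libraries scaled by their totals instead, the calls over all genes shifted to 2994 higher and 6343 lower, from 4372 and 4785, and the median of all genes from -0.05 to -0.21. The members' median was 0.18. The groups did not overlap in 9 members, as in 57.0% of all genes.

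DUSP5 reached 977, 893 and 900.1 CPM with GSK715, 2.47 times the DMSO level (log2 fold change 1.31, SE 0.041). This was the largest change of the 10 genes in HCT116 under either inhibitor. DUSP6 reached 300.4, 297 and 311 CPM (log2 fold change 0.49, SE 0.036). DUSP4 went the other way, to 167, 170.0 and 172 CPM, below all 3 controls (log2 fold change -0.37, SE 0.042). A nuclear phosphatase of ERK thus rose while another fell in the same libraries.

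ETV5 rose 1.605-fold with GSK715, to 211, 190.0 and 199 CPM (log2 fold change 0.68, SE 0.047), and ETV4 1.27-fold, to 53.4, 54.0 and 53.2 CPM (log2 fold change 0.34, SE 0.046). No treated library of either gene was within the control range. SPRED2 measured 83.4, 85.3 and 83.6 CPM (log2 fold change 0.24, SE 0.043), a call that was lost with library totals (log2 fold change 0.08). SPRED1 fell to 36.4, 41.3 and 36.5 CPM (log2 fold change -0.67, SE 0.064), further than with GSK025. SPRY4 measured 114, 109 and 103 CPM, barely clear of its controls (log2 fold change 0.11, SE 0.051), and its sign turned with library totals (-0.05). SPRY4 passed with RLE size factors and with DESeq2 (0.13 in either), without GSK715 replicate 3 (0.16) and in a fit of only these groups (0.14). SPRY2, with 9.69, 11.1 and 8.92 CPM, overlapped its controls (log2 fold change 0.04, 95% interval -0.19 to 0.27, and -0.12 with library totals). PHLDA1 fell to 217, 224 and 218 CPM (log2 fold change -0.77, SE 0.033), which is close to its level with GSK025.

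Set directly against each other, at 5 µM of GSK715 and 10 µM of GSK025, the inhibitors differed most in the nuclear phosphatases. The doses differ, so these values do not rank the compounds. DUSP5 was 2.40 times as high with GSK715 (log2 difference 1.26, SE 0.041) and DUSP4 2.34 times as high with GSK025 (log2 difference -1.23, SE 0.043, GSK715 minus GSK025). ETV4 (-0.52, SE 0.046), SPRY4 (-0.35, SE 0.051), SPRY2 (-0.31, SE 0.12) and SPRED1 (-0.30, SE 0.065) were lower with GSK715 and ETV5 was higher (0.29, SE 0.047). The log2 differences of DUSP6 (0.09, 95% interval 0.02 to 0.17), SPRED2 (0.10, 0.02 to 0.19) and PHLDA1 (-0.03, -0.09 to 0.04) did not pass. DUSP6 and SPRED2 did pass with RLE size factors and with DESeq2, DUSP6 also without GSK025 replicate 1, and PHLDA1 with library totals (-0.12). SPRY2 lost its call without any 1 of 8 of the 9 libraries, GSK715 replicate 2 being the exception.

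Thus 2 members were higher and 5 lower with GSK715, against 21.8% and 22.5% of all genes tested (44.3% in all). With library totals the split over all genes was 3474 higher and 5406 lower, from 4302 and 4444. In 9 members the groups did not overlap, PHLDA1 being the exception, as in 53.0% of all genes.

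In WiDr the direction was uniform: 9 of the 10 genes fell with GSK715, and all 10 log2 fold changes were negative. PHLDA1 fell most and SPRY2 was the member that did not pass. The members' median log2 fold change was -1.42, against 0.054 for all genes. In this line 65.8% of the 19340 genes tested passed (33.6% higher, 32.2% lower), so a call by itself is common. The direction and size of the members' changes were known when the genes were chosen, and they are a description only. The groups did not overlap in 9 members, as in 72.2% of all genes. Library totals moved the median of all genes to 0.18 and the split to 7495 higher and 5300 lower, from 6502 and 6225. In bulk RNA, fewer cells that express a gene and less RNA per cell cannot be told apart.

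PHLDA1 measured 504, 503 and 496 CPM with DMSO and 82.2, 78.1 and 83.3 CPM with GSK715. The controls were more than any treated library by a wide margin, a 6.17-fold decrease (log2 fold change -2.62, SE 0.033). ETV5 fell 3.53-fold, from 79.7, 80.1 and 77.8 CPM to 23.9, 21.0 and 22.4 CPM (log2 fold change -1.82, SE 0.053). ETV4, its relative, fell less, from 106, 111 and 106 CPM to 60.9, 64.1 and 59.6 CPM (log2 fold change -0.81, SE 0.038). Neither ETS factor had overlapping groups.

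All 3 phosphatases fell by 2.19-fold or more in WiDr. DUSP6 went from 169, 168 and 172 CPM to 52.2, 49.4 and 53.0 CPM (log2 fold change -1.72, SE 0.036). DUSP5, of the 10 genes the one that GSK715 raised most in HCT116, went from 82.2, 76.2 and 75.4 CPM to 28.1, 25.4 and 24.8 CPM (log2 fold change -1.58, SE 0.059). DUSP4 went from 109.6, 112 and 105 CPM to 47.1, 50.9 and 51.4 CPM (log2 fold change -1.13, SE 0.043). For each of them every treated library lay below every control.

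SPRY4 fell 2.99-fold, from 55.7, 51.8 and 53.4 CPM to 17.9, 18.5 and 17.5 CPM (log2 fold change -1.58, SE 0.054). Its relative SPRY2 had 19.2, 22.6 and 21.4 CPM with DMSO and 20.2, 18.2 and 17.6 CPM with GSK715 (log2 fold change -0.17, SE 0.085). These groups overlapped, and SPRY2 passed only without DMSO replicate 1 or without GSK715 replicate 1 (-0.24 in either case). SPRED1 fell 2.39-fold, from 303, 291 and 312 CPM to 129, 121 and 129 CPM (log2 fold change -1.26, SE 0.038), and SPRED2 1.46-fold, from 143, 146 and 135 CPM to 96.1, 98.6 and 95.5 CPM (log2 fold change -0.54, SE 0.036). By these values SPRY4 fell further than SPRY2, and SPRED1 further than SPRED2.

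**Figure D2:**
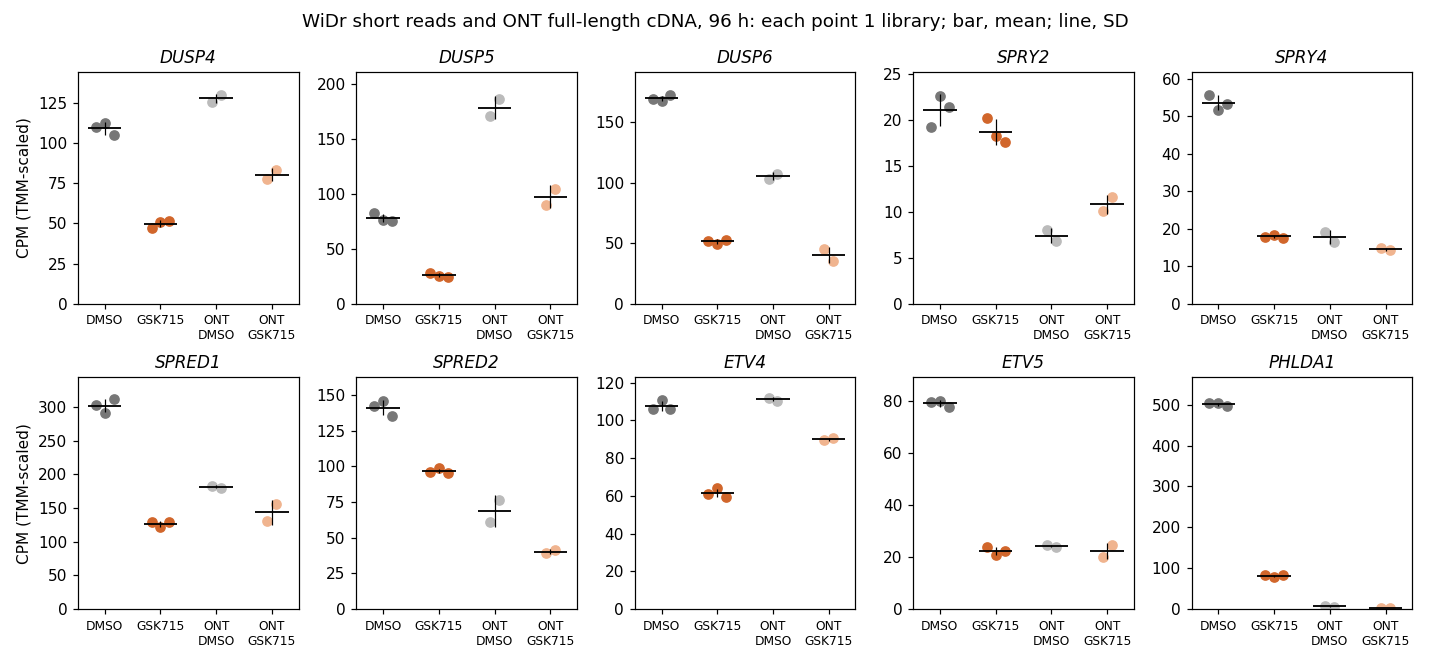
TMM-scaled CPM (linear axes from 0) of the 10 genes in WiDr, with 3 short-read libraries per group on the left and 2 ONT libraries per group on the right of each panel. Each point is 1 library, the bar is the mean and the line the SD. Short-read libraries with GSK715 lay below those with DMSO for every gene except SPRY2, and PHLDA1 was at 2.69 to 7.38 CPM in ONT against 78.1 to 504 CPM in short reads.

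Since GSK715 was given to both lines at the same dose and time, its response can be compared as a difference of differences over the gene IDs that both short-read tables hold. The response was lower in WiDr for 9 of the 10 genes, and SPRY2 did not pass (log2 difference -0.28, 95% interval -0.59 to 0.02, and 0.07 with library totals). The largest differences were those of DUSP5 (-2.95, SE 0.070), ETV5 (-2.57, SE 0.073) and DUSP6 (-2.27, SE 0.049). PHLDA1 (-1.92, SE 0.041) and SPRY4 (-1.76, SE 0.064) followed, and then ETV4 (-1.22, SE 0.055), SPRED2 (-0.85, SE 0.049), DUSP4 (-0.82, SE 0.060) and SPRED1 (-0.66, SE 0.072). Over all 21791 genes tested, 46.7% differed (23.2% higher and 23.5% lower in WiDr), and the median difference was 0.123, against -1.49 for the members. With library totals the calls over all genes became 7321 higher and 3203 lower, from 5058 and 5129, and the median 0.47. Each of the 9 calls held with library totals.

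For 5 members the difference was one of direction: DUSP5, DUSP6, SPRED2, ETV4 and ETV5 rose in HCT116 and fell in WiDr. The call of SPRED2 in HCT116 ended with library totals, as given above. Among all 16313 genes tested in both lines, 8.96% did so. DUSP4, SPRED1 and PHLDA1 fell in both lines, and further in WiDr. No member rose in both lines.

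**Figure D3:**
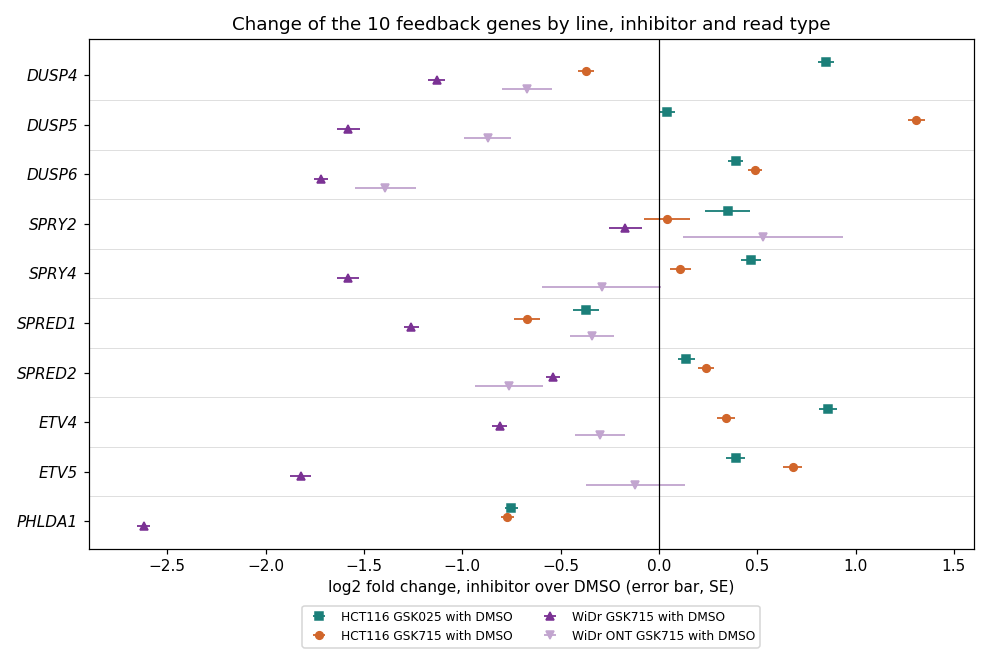
Log2 fold change of each gene (inhibitor over DMSO, error bar SE) for GSK025 and GSK715 in HCT116 and for GSK715 in WiDr short reads and WiDr ONT. In WiDr short reads all points lie below 0, from -0.17 (SPRY2) to -2.62 (PHLDA1), while the HCT116 points lie between -0.77 and 1.31, and PHLDA1 has no ONT point because it was under the count filter there.

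The ONT libraries gave the same WiDr treatment at far lower depth and with 1 read per cDNA molecule. 9 of the 10 genes passed the count filter, and of these 4 fell (DUSP4, DUSP5, DUSP6 and SPRED2) and 5 did not pass, among them SPRY2 with the only positive value. Of the 15877 genes tested, 8.80% passed (4.29% higher, 4.51% lower). The groups did not overlap in 8 of 9 members, as in 50.1% of all genes, ETV5 being the exception. With library totals the split over all genes was 592 higher and 991 lower, from 681 and 716. With DESeq2 2 members fell, and DUSP4 and SPRED2 were the calls lost. The count of genes called over the whole table dropped from 1397 to 464 without DMSO replicate 1 and to 591 without DMSO replicate 2.

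DUSP6 went from 103 and 108 CPM to 45.1 and 35.4 CPM in ONT (log2 fold change -1.39, SE 0.16). DUSP5 went from 171 and 186 CPM to 90.2 and 105 CPM (log2 fold change -0.87, SE 0.12), and DUSP4 from 126 and 129.6 CPM to 77.4 and 83.0 CPM (log2 fold change -0.67, SE 0.13). All 3 phosphatases were below their controls in each treated library, as in the short reads. SPRED2 went from 60.9 and 76.8 CPM to 39.1 and 41.5 CPM (log2 fold change -0.76, SE 0.17), which did not pass without DMSO replicate 2 (-0.60) or without the count filter. SPRED1 went from 183 and 179.7 CPM to 131 and 157 CPM (log2 fold change -0.34, SE 0.11) and did not pass, though it did without GSK715 replicate 2 (-0.47), with library totals in place of TMM (-0.39) and with the replicate block.

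The ETS factors and the Sprouty genes did not pass in ONT. ETV4 had 112 and 110.4 CPM with DMSO and 89.6 and 90.5 CPM with GSK715 (log2 fold change -0.30, 95% interval -0.55 to -0.05). ETV5 had 24.6 and 24.0 CPM with DMSO and 20.2 and 24.5 CPM with GSK715 (log2 fold change -0.12, interval -0.61 to 0.37). SPRY4 went from 19.1 and 16.5 CPM to 14.8 and 14.3 CPM (log2 fold change -0.29, interval -0.88 to 0.30). SPRY2, at 7.998 and 6.86 CPM with DMSO and 10.1 and 11.6 CPM with GSK715, rested on 10 to 17 reads per library (log2 fold change 0.53, interval -0.26 to 1.33). For ETV4, ETV5 and SPRY4 these intervals do not reach the short-read changes of -0.81, -1.82 and -1.58. The same held for DUSP4 (-0.92 to -0.42 against -1.13), DUSP5 (-1.1 to -0.63 against -1.58) and SPRED1 (-0.56 to -0.12 against -1.26). For DUSP6 the ONT interval (-1.69 to -1.08) just missed the short-read value of -1.72. It overlapped the interval of that value (-1.79 to -1.65), and the difference of 0.38 between the read types did not pass. The intervals of SPRY2 and SPRED2 (-1.1 to -0.43) did hold the short-read changes of -0.17 and -0.54.

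PHLDA1, of the 10 genes the one with the largest short-read response in WiDr, was nearly absent from the ONT table, at 7.38 and 5.49 CPM with DMSO and 2.69 and 2.72 CPM with GSK715. It rested on 8 to 12 and on 4 reads per library. In short reads of the same line it was the highest of the 10 genes per kilobase. An antisense gene, AC011611.4, shares 16.5% of the exonic bases of PHLDA1. It had 6.77 and 5.49 CPM with DMSO and 2.02 and 0.681 CPM with GSK715 in ONT, as much as PHLDA1 itself or less, and at most 0.367 CPM in any short-read library. The strand of the reads is not given, so counts of PHLDA1 are uncertain, and so are those of DUSP6, of which 40.5% of the exonic bases are shared with the antisense gene AC024909.2. That gene had 1.29 to 5.04 CPM in short reads and none in ONT. Whether these overlaps bear on the difference between read types was not tested.

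Between the read types the response to GSK715 was less negative in ONT for 6 of the 10 genes, none was more negative, and 4 did not pass. ETV5 differed by 1.75 (SE 0.18, ONT minus short reads on the log2 scale), SPRY4 by 1.34 (SE 0.20), SPRED1 by 0.97 (SE 0.10), DUSP5 by 0.76 (SE 0.12), ETV4 by 0.55 (SE 0.099) and DUSP4 by 0.51 (SE 0.11). The difference of DUSP4 was lost with library totals (0.30). This fit shared its estimate of the spread of each gene between the short-read and the ONT libraries. For ETV5 and SPRY4 the SE of the ONT response alone was larger, at 0.25 and 0.30. The SEs of these differences may therefore understate the spread in ONT, and the calls are less certain than they appear. Of 24055 genes tested, 19.9% differed (11.2% higher and 8.69% lower in ONT), and the median of all genes was -0.042, against 0.76 for the members. With library totals the split over all genes was 1802 higher and 3076 lower, from 2697 and 2090, and the median -0.24. Depth, read length and counting all differ between the tables, and their part was not tested.

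In ONT, where a read was taken to stand for a molecule and no length correction was made, the DMSO order also differed. Whether transcript length bears on the ONT levels was not tested. SPRED1 (181 ± 2.16 CPM, n = 2) and DUSP5 (178 ± 10.5 CPM) were alike within their spread, followed by DUSP4 (128 ± 2.90), ETV4 (111 ± 1.11), DUSP6 (106 ± 3.04), SPRED2 (68.9 ± 11.2), ETV5 (24.3 ± 0.430) and SPRY4 (17.8 ± 1.85). SPRY2 (7.43 ± 0.806) and PHLDA1 (6.43 ± 1.34) were lowest and did not differ beyond their spread.

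The rest of the pathway was described with lists of 76 other genes. With GSK025 in HCT116, 34 rose and 28 fell, against 22.0% and 22.1% of all genes tested. With GSK715 there, 32 rose and 25 fell, against 22.1% and 24.2%. In WiDr 53 of the 74 measured fell and 13 rose with GSK715, with a median log2 fold change of -0.61. Of all genes tested there, 32.2% fell and 33.6% rose. In ONT 14 of 64 fell and 1 rose, against 4.51% and 4.29% of all genes tested. The same shares of all genes apply to the counts of each list below. The lists were chosen with these results known, and members of the 10 were left out. Adjusted p-values given for list genes therefore describe those genes and are no support for a pattern.

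The other MAPK phosphatases mostly had the signs of DUSP5. With GSK715 in HCT116 6 of 8 rose and none fell (median 0.85), while in WiDr 6 of 7 fell and none rose (median -1.26). DUSP1, the immediate-early MAPK phosphatase, rose from 17.6 ± 0.891 to 55.7 ± 2.08 CPM in HCT116 (log2 fold change 1.67, SE 0.070, adjusted p = 1.8e-09, n = 3). In WiDr short reads it fell from 44.6 to 11.1 CPM (log2 fold change -2.01, SE 0.064, adjusted p = 2.3e-09), a difference between the lines of -3.74 (SE 0.086, adjusted p = 1.7e-12). DUSP8, which acts mainly on stress-activated kinases, showed the same signs: 1.41 in HCT116 (adjusted p = 3.8e-08) and -1.76 in WiDr (adjusted p = 1.9e-09). Both fell in ONT too, DUSP1 by 0.83 (adjusted p = 0.0012) and DUSP8 by 1.09 (adjusted p = 0.0033) on the log2 scale. GSK025 differed here: 6 of 8 rose, but DUSP1 fell slightly, from 17.6 to 14.6 CPM (log2 fold change -0.27, adjusted p = 0.0068).

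Of 12 other genes known to be induced by ERK, 7 rose with GSK025 and 7 with GSK715 in HCT116, and 2 and 4 fell. All 11 that were measured fell in WiDr with GSK715 (median -1.53), and 6 of 11 fell in ONT, with none rising. FOSL1, an AP-1 subunit that reports sustained ERK activity, rose in HCT116 with GSK715 from 69.99 to 113 CPM (log2 fold change 0.69, adjusted p = 1.5e-07). In WiDr it fell from 80.4 ± 1.78 to 6.98 ± 0.111 CPM (log2 fold change -3.53, SE 0.049, adjusted p = 1.5e-11). EPHA2, an ephrin receptor, rose with GSK025 (log2 fold change 1.08, adjusted p = 1.6e-09) and with GSK715 (0.75, adjusted p = 9.2e-09) in HCT116 and fell in WiDr (-1.98, adjusted p = 3.2e-11). MAFF and IER3 rose with GSK715 in HCT116 by 1.14 and 1.04 and fell in WiDr (-1.43 and -1.32). EGR1, the immediate-early zinc finger factor, fell in both lines with GSK715 (-0.58, adjusted p = 1.5e-07, and -3.11, adjusted p = 1.3e-08). It was the list's largest change in ONT (-3.27, SE 0.17, adjusted p = 1.9e-19).

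The ligands and receptors upstream of RAS split by gene. AREG and EREG, ligands of the EGF receptor, fell in WiDr from 596 to 14.8 CPM (log2 fold change -5.33, SE 0.051, adjusted p = 3.4e-12) and from 868 to 14.3 CPM (-5.92, SE 0.079, adjusted p = 1.1e-11). In HCT116 GSK715 lowered them less (-0.55 and -1.81). EGFR itself fell in both lines, from 132 to 11.8 CPM in HCT116 (-3.49, adjusted p = 1.5e-11) and from 108 to 11.3 CPM in WiDr (-3.26, adjusted p = 9.9e-12). The difference of 0.16 (SE 0.092, adjusted p = 0.19) between the lines did not pass. With GSK025 EGFR did not pass (-0.06, adjusted p = 0.56). HBEGF rose in HCT116 with GSK715 from 11.9 to 25.1 CPM (1.08, adjusted p = 5.7e-07) and fell in WiDr from 32.8 to 2.04 CPM (-4.00, adjusted p = 2.2e-09). ERBB2 rose in WiDr short reads (1.23, adjusted p = 2.9e-09). None of the 10 ligands and receptors measured in ONT rose, and the response of ERBB2 was lower in ONT than in short reads.

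Among 19 adaptors, RAS, RAF, MEK and ERK genes, 4 rose and 13 fell in WiDr short reads with GSK715, and 8 rose and 9 fell in HCT116. MAP2K2, a MEK kinase, fell in WiDr from 112 to 52.7 CPM (log2 fold change -1.09, adjusted p = 8.3e-10) and MAPK3, an ERK kinase, rose from 25.1 to 49.5 CPM (0.98, adjusted p = 1.1e-06). In ONT 1 of the 19 rose, 2 fell and 16 did not pass. BRAF was the gene that rose there, from 38.0 to 80.2 CPM, while in short reads it went from 80.6 to 41.3 CPM. MAP2K2 fell in ONT too. MAPK3 did not pass in ONT, and its response was lower there than in short reads. The counts of IER3 and LYZ, named above, are uncertain, since 10% or more of the exonic bases of each are shared.

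Of 9 further brakes, ERRFI1, an inhibitor of the EGF receptor, changed most in WiDr. It rose in HCT116 with GSK715 from 569 to 739.8 CPM (log2 fold change 0.38, adjusted p = 3.8e-07) and fell with GSK025 to 411 CPM (-0.47, adjusted p = 9.5e-08). In WiDr short reads it fell from 1306 ± 14.8 to 116 ± 3.15 CPM (-3.49, SE 0.028, adjusted p = 1.6e-12). ERRFI1 fell in ONT too, but its response was less negative there. The lowest log2 fold change of the 7 brakes measured in ONT was -1.47. Over this list, 2 rose, 5 fell and 2 did not pass in WiDr, where 65.8% of all genes tested passed. With GSK715 in HCT116, 3 rose, 3 fell and 3 did not pass. ERRFI1, PEBP1 and PEA15 were the 3 of 9 that rose in HCT116 and fell in WiDr, against 8.96% of all genes tested in both lines. Among 11 other ETS factors 2 rose and 9 fell in WiDr, ETS1 among the latter (-1.01, adjusted p = 1.4e-07), whereas ETS1 rose in HCT116 with GSK715 (0.95, adjusted p = 3.1e-08). In HCT116 2 of the 11 rose, 4 fell and 5 did not pass. Only ETV3 and ETS1 rose in HCT116 and fell in WiDr, while 4 fell in both lines. Of the 3 other Sprouty and SPRED genes only SPRY1 passed in WiDr (-0.24, adjusted p = 0.0045).

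**Figure D4:**
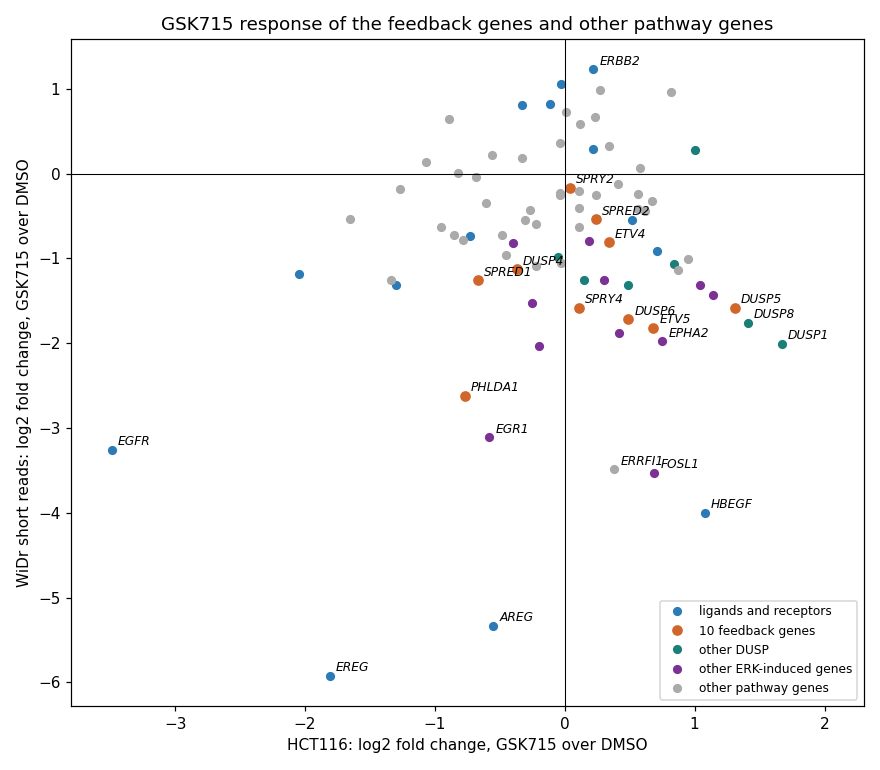
Log2 fold change with GSK715 over DMSO in HCT116 (horizontal axis) and in WiDr short reads (vertical axis), 1 point per gene, for the 10 genes and the other pathway lists. DUSP1, DUSP8 and DUSP5 lie furthest right and below 0 on the vertical axis (1.67 and -2.01, 1.41 and -1.76, 1.31 and -1.58), PHLDA1 and EGFR are negative on both axes, and SPRY2 lies near the origin.

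The genes most like 3 of the members were found over the 15 short-read libraries, by the root mean square (RMS) difference of log2(CPM + 0.5) after subtracting the DMSO mean of each line. Among 9794 genes compared, INPP1, an inositol polyphosphate phosphatase, was nearest to DUSP6 (RMS difference 0.08). Its log2 fold changes were 0.45 and 0.54 with GSK025 and GSK715 in HCT116 and -1.79 in WiDr. TNFRSF10B (0.10), a TRAIL receptor, and ODC1 (0.11), the rate-limiting enzyme of polyamine synthesis, came next. Nearest to SPRY4 were NEK6, CDCA8 and RGS3 (0.09 each), and nearest to ETV5 were CSRNP1 (0.12), INPP1 (0.12) and LMO4 (0.13). Likeness here is over 3 inhibitor responses only and shares its DMSO libraries.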

How the data were processed

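RNA of HCT116 and WiDr was sequenced as poly(A)-enriched short-read pairs and, for WiDr, as ONT full-length cDNA, per the labels' protocols. The submitters' processing notes name cutadapt, HISAT2, StringTie, DESeq2, minimap2, Salmon and GRCh38. Their versions, the annotation release and the strand are not given in the sources used here. For the short reads the deposited values are raw gene counts. The deposited ONT table holds estimated counts, of which 15.1% were not whole, and these were rounded. Columns named NC in the WiDr tables were taken as DMSO, the only control in the labels.

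Each table was fitted on all genes with edgeR 4.0.16 in R 4.3.3: filterByExpr (minimum count 10, minimum total 15), TMM scaling, then the quasi-likelihood F-test, adjusted by Benjamini-Hochberg over all genes tested, at a threshold of 0.05. The 3 HCT116 groups shared 1 fit. The lines were compared by an interaction term over 60259 shared gene IDs and the read types, a comparison added after seeing the data, over 61975. The test was tried on simulated data, but the outcome is not reported here and is no support for the calls. Symbols and exonic lengths came from GENCODE 29, promoter windows from RefSeq. A gene counts as uncertain where 10% or more of its exonic bases are shared.

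The members, lists, comparisons and alternatives were chosen with earlier results of these data known. Genes named were all 10 members, of each other list the called genes with the smallest adjusted p (up to 2 per direction and comparison), and 3 genes most like DUSP6, SPRY4 and ETV5. A part of these is printed, and a gene named for a comparison is also given in others, chosen after their values were seen. Alternatives were RLE size factors, library totals, no count filter, DESeq2 1.42.0, a block for the replicate number, only the groups compared, and each library left out. The ONT read statistics were not used here. Some genes that the naming rule takes are not reported here.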

Additional observations from a re-analysis of the deposited data

Results flagged for a closer look

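The response to GSK715 differed between the lines by the interaction test in 9 of the 10 genes, and each is listed here for that reason. The log2 differences, WiDr minus HCT116, were -2.95 for DUSP5, -2.57 for ETV5, -2.27 for DUSP6, -1.92 for PHLDA1, -1.76 for SPRY4, -1.22 for ETV4, -0.85 for SPRED2, -0.82 for DUSP4 and -0.66 for SPRED1. The genes were chosen with these libraries known, so the differences describe them.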

How the results depend on the processing

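With RLE size factors and with DESeq2, 4 members in place of 2 were higher with GSK715 than with GSK025 in HCT116. In ONT 251 genes were called without the count filter (141 higher, 110 lower) and 277 with DESeq2 (152 higher, 125 lower), against 1397 (681 and 716), and DESeq2 left 2 of 4 members lower. Leaving out 1 ONT library gave 464 to 1058 called genes (236 to 571 higher, 228 to 509 lower) and 3 to 5 members lower. With library totals 3203 genes were lower in the WiDr minus HCT116 comparison, against 5129. Leaving out any 1 library kept 9 members lower in that comparison, 9 to 10 lower in WiDr, 5 to 7 higher with GSK025 and 5 to 6 higher with GSK715 in HCT116. Correlations of same-numbered deviations ran from -0.158 to 0.023 in HCT116 and from -0.057 to 0.181 in WiDr. In ONT, with 2 libraries per group, both replicate numbers must give the same value, which was 0.001. Such correlations cannot tell whether same-numbered libraries were paired in the experiment, and the labels do not say. The main fits did not use the replicate number. With the replicate number as a block, 8486, 8881, 12351 and 1706 genes were called for GSK025 and GSK715 in HCT116 and for WiDr short reads and ONT, and 8411, 9789 and 4384 in the comparisons of inhibitors, lines and read types. The block lost the call of SPRY2 between the inhibitors and gave that of SPRED1 in ONT. Over all settings, 922 values of single members kept their direction and side of the threshold, 27 lost a call, 15 gained a call and 7 without a call moved. No called value reversed. In ONT SPRY2 rested on 10 to 17 reads per library and PHLDA1 on 4 to 12, so neither is measured precisely there.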

Other observations

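Across genes of at least 5 CPM in HCT116, the response ran with exonic length (Spearman's rho -0.301 for GSK025 and -0.293 for GSK715, across 11184 genes, which are not independent replicates), and it hardly did so in WiDr short reads (-0.063) or ONT (-0.009). The 10 genes span 2615 to 8260 exonic bases, and genes in that range had median log2 fold changes of 0.06 and 0.03 in HCT116 and -0.11 in WiDr short reads. The part of length in the members' responses was not tested.

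The response of several other pathway genes also differed between the read types in WiDr. AREG was -5.33 in short reads and -1.24 in ONT, a difference of 4.14 (SE 0.12, adjusted p = 2.8e-09, edgeR quasi-likelihood test), and EREG differed by 4.74 (SE 0.17, adjusted p = 1.2e-08). EGR1 did not differ detectably (-0.11, SE 0.31, adjusted p = 0.93). The fit shared its estimate of the spread of each gene between the read types, so these SEs may understate the spread in ONT. Over the 75 other pathway genes measured, 33 were less negative or higher in ONT and 6 lower, against 11.2% and 8.69% of all genes tested.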
